A study of Mus musculus with 12 samples.

Results

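The 97 genes described here are the well-measured antisense RNAs of the neonatal mouse lung, meaning genes annotated as antisense RNA that held at least 100 raw counts in each of the 12 libraries. Tsix, whose lowest library held 14 counts, was left out by name. They were chosen by measured values, from 2646 antisense RNA genes among the 52550 genes of the count table, and so their level is not a finding. Each was set beside 1 coding partner, the protein-coding gene named by its symbol or lying across from it on the opposite strand, which gave 96 partners because Gm15948 and Gm15949 both lie in Limch1.

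An antisense RNA is transcribed from the strand opposite to a coding gene, so that the pair shares a stretch of DNA read in both directions. Some start at the coding gene's own promoter and run away from it, some run through its exons or introns, and a few, such as Kcnq1ot1 and Airn, are known to silence imprinted neighbours on the same chromosome. Because both transcripts of a pair lie in the same chromatin, antisense RNAs often rise and fall with the coding gene.

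The study compared whole lungs of C57Bl/6J mice at postnatal day 5 in 4 groups of 3 mice, with 1 library per mouse. WT PBS (libraries 3, 4 and 5, called replicates by these numbers) and WT LPS (9, 10 and 11) carried both copies of Adm, the gene of the vasoactive peptide adrenomedullin. Adm+/- PBS (6, 7 and 8) and Adm+/- LPS (1, 2 and 12) had lost 1 copy, in a line crossed from a 129/SvEv background onto C57BL/6J. The library titles call them AMKO, although the genotype field gives Adm+/-. LPS, the endotoxin of Escherichia coli O55:B5, was injected at 6 mg/kg once a day for 3 days from postnatal day 3, with PBS as the control, and tissue was collected 6 h after dosing ended. The p-values measure the spread between mice of a group.

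Libraries held 22382535 to 38062873 counts (median 28494877), of which the 97 antisense RNAs took 0.121% to 0.167%. WT PBS replicate 5 and Adm+/- PBS replicate 6 stood apart. In them the single noncoding gene Gm26917 took 16.6% and 13.3% of all counts, against 5.42% to 7.40% in the other 10 libraries, and the antisense RNAs deviated more from their group means (median 0.237 and 0.197 on the log2 scale, against at most 0.156 elsewhere). Calls that rest on these libraries are given with and without them, and the part of this deviation in the results was otherwise not tested. None of the markers of lung epithelium (6 genes), endothelium (4) and mesenchyme (5) was at 0 in every library. The summed lung epithelium markers overlapped in WT, at 10993 to 12979 CPM in LPS against 11313 to 14052 CPM in PBS. They also overlapped in Adm+/-, at 12581 to 13419 CPM in LPS against 10650 to 14388 CPM in PBS. The summed endothelial markers were lower after LPS without overlap, at 1420 to 1447 CPM against 1705 to 1977 CPM in WT and 1487 to 1695 CPM against 1727 to 1865 CPM in Adm+/-. The mesenchyme markers were lower without overlap in WT (10582 to 12874 CPM against 13117 to 38750 CPM) and overlapped in Adm+/-. The 3 leukocyte markers summed to 165 to 259 CPM in LPS and 51.6 to 86.4 CPM in PBS. The summed level of 7 skeletal muscle markers was 236 to 822 CPM in WT LPS and at most 19.2 CPM in the other groups. That of 5 squamous epithelium markers was 18.2 to 2175 CPM in WT LPS and reached 29.4 CPM in Adm+/- LPS, so that these groups overlapped. The 5 neutrophil markers summed to 861 to 1541 CPM in WT LPS and 882 to 1074 CPM in Adm+/- LPS, against 21.1 to 99.9 CPM in PBS. The part of these cells in the changes below was not tested, and in whole lung fewer cells of a type and less RNA per cell cannot be told apart.

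Adm itself had 3.32, 5.98 and 4.10 CPM (library-size-scaled counts, with TMM factors) in WT PBS and 6.52, 6.87 and 3.77 CPM in WT LPS. It had 3.96, 2.42 and 3.03 CPM in Adm+/- PBS and 3.14, 5.29 and 3.27 CPM in Adm+/- LPS. The log2 difference between Adm+/- and WT was −0.52 in PBS (SE 0.31, adjusted p = 1) and −0.56 in LPS (SE 0.31, adjusted p = 0.545, edgeR), and the ranges overlapped in both.

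Whether the counts of an antisense RNA are its own was checked first, in genes whose every exonic base lies inside exons on the opposite strand. If reads had been counted by strand, such genes would hold reads like any other. Of 70 antisense RNA genes of this kind, 68 (97.1%) had 0 counts in all 12 libraries, and the highest of the remaining 2 totalled 77 counts. Among 1082 antisense RNA genes that share no exonic base with another gene, 69 (6.38%) had 0 counts. The same held for protein-coding genes lying wholly inside opposite exons, 34 of 38 (89.5%) of which had 0 counts, and for 462 of 472 (97.9%) over all biotypes. Counting without strand gives this, since a read in exons of a pair of genes is then left out. The deposited values of the antisense RNAs therefore rest on their unshared exonic bases. Where such bases lie inside the partner's span, a read of the antisense RNA and a read of its partner's unspliced RNA cannot be told apart.

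**Figure D1:**
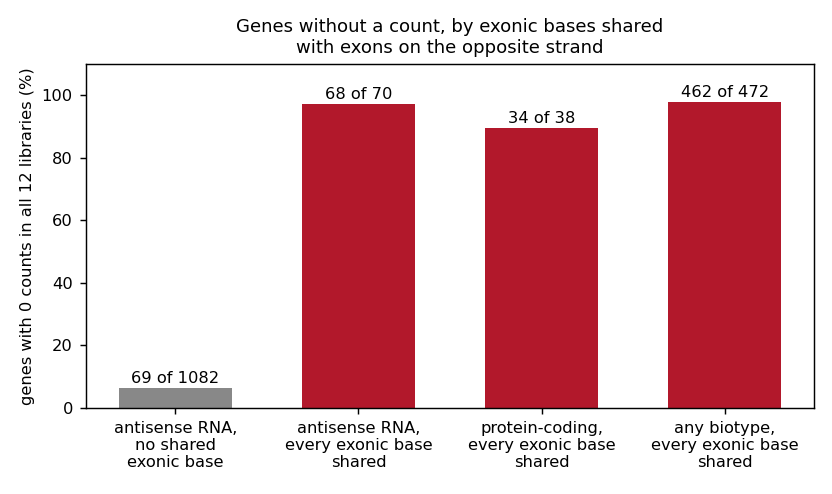
Bars give the percentage of genes with 0 counts summed over the 12 libraries, with the number of genes above each bar. Of antisense RNAs that share no exonic base with another gene 6.38% were without a count, and of those wholly inside opposite exons 97.1%.

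The 97 antisense RNAs lay on 20 chromosomes and had a median exonic length of 2971 bases (126 to 93092), against 901 for all antisense RNA genes. The exons of 63 overlapped exons of the partner, 26 lay inside an intron of it, 5 overlapped its span without touching an exon, and 3 did not overlap it but started within 2 kb. In 67, at least 1 exonic base lay inside an exon on the opposite strand. In 18 pairs the starts lay head to head within 2 kb. The 3 of them that did not overlap ran apart, and in the others the first bases of the pair overlapped. The partner was given by the symbol in 15 pairs, by the shared span in 81 and by the head-to-head start in 1 (2810001G20Rik and Cox10). A single exon made up 15 of them.

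Mean levels over the 12 libraries ran from 4.55 to 334 CPM with a median of 9.32. Kcnq1ot1 (ENSMUSG00000101609), an imprinted RNA of 93092 bases across from the potassium channel gene Kcnq1, was the most abundant at 334 CPM. Next came Brip1os at 59.1 CPM, Dnm3os at 51.6 CPM, Gm15564 at 45.6 CPM and Airn at 36.7 CPM. Levels per length, in CPM per kb of unshared exonic sequence, gave another order. The highest were Gm15949 (86.4), Gm15564 (55.6), Gm15948 (41.8), Gm29237 (37.6) and AC118202.1 (34.8), while Kcnq1ot1 had 3.63. Gm15949 and Gm15948 lie in introns of Limch1 with only 126 and 403 exonic bases, and Gm29237 lies in Sptbn1. The members nearest to the limit were 4921514A10Rik, AC061963.1, Gm13269 and Plxna4os2 with 100 counts in their lowest library, and just outside it stood Gm16008 and Gm16059 with 98 counts.

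The response to LPS was compared in each genotype. A gene was called when edgeR's adjusted p was below 0.05 and the absolute log2 fold change above 0.5, in a fit of 23051 genes of all biotypes that included all 97. In WT mice 1 of the 97 rose and 9 fell, against 7.70% of all tested genes called higher and 5.46% called lower. In Adm+/- mice 4 rose and 17 fell, against 11% higher and 10.5% lower. As shares of the 97, the falls were 9.28% in WT and 17.5% in Adm+/-, and the rises 1.03% and 4.12%. Genes of any biotype that met the same limit of 100 counts (11834) had 6.04% higher and 7.75% lower in WT and 10% higher and 12.4% lower in Adm+/-. The split of all 1448 antisense RNAs tested was 50 higher and 37 lower in WT and 134 higher and 118 lower in Adm+/-. The median log2 fold change of the 97 was −0.11 in WT and −0.05 in Adm+/-, against 0.01 and −0.01 over all genes and −0.07 and −0.05 over the genes of any biotype at the same limit.

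The LPS and PBS libraries did not overlap for 30 of the 97 in WT (6 higher, 24 lower), against 31.4% of all tested genes (15.8% higher, 15.6% lower). In Adm+/- they did not overlap for 44 (17 higher, 27 lower), against 47.8% (23.8% higher, 24.0% lower). The total shares, 30.9% and 45.4%, were near the background, while by direction the members had 6.19% higher and 24.7% lower in WT and 17.5% and 27.8% in Adm+/-. Genes of any biotype at the same limit did not overlap in 36.1% in WT (14% higher, 22.1% lower) and 55.3% in Adm+/- (24.4% higher, 30.9% lower). Called in both genotypes were 9 antisense RNAs, of which 4933423P22Rik rose and 8 fell. A further 12 were called in Adm+/- alone (3 higher, 9 lower), and AC126549.1 was called in WT alone. Being called in one genotype and not the other does not show a difference, and the test of the difference itself is given further on.

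The count of falls moved with single libraries. In WT it dropped from 9 to 1 without WT LPS replicate 9, to 2 without WT LPS replicate 10 and to 4 without Adm+/- LPS replicate 12. In Adm+/- it dropped from 17 to 8 without Adm+/- LPS replicate 1, 9 without replicate 2, 10 without replicate 12 or Adm+/- PBS replicate 6, and 11 without Adm+/- PBS replicate 7 or 8. Without both outlying PBS libraries 7 were lower in WT, 5 of them among the 9, and 14 in Adm+/-, 12 of them among the 17.

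**Figure D2:**
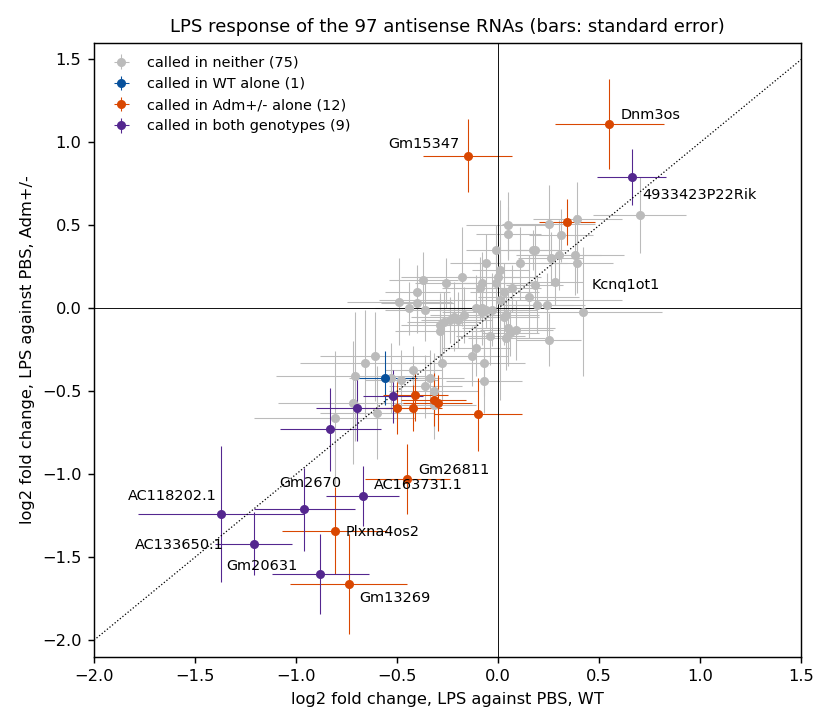
Each point is 1 of the 97 antisense RNAs, with the log2 fold change of LPS against PBS in WT mice on the x axis and in Adm+/- mice on the y axis, and bars of 1 standard error from edgeR. The dotted line marks equal responses. Points called in both genotypes (9) lie mostly at lower left, and Gm15347 and Dnm3os stand above the line.

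Dnm3os (ENSMUSG00000078190; chromosome 1, 162217623 to 162225550, plus strand) is a single-exon RNA of 7928 bases inside an intron of Dnm3, which encodes a dynamin, a GTPase that pinches off membrane vesicles. It is known as the host transcript of 2 microRNA genes, Mir199a-2 and Mir214, which are studied for their part in mesenchyme and fibrosis. Both hairpins lie within its exon, and their mature products are shown because they tell which regulators ride on this antisense RNA, with the seed (bases 2 to 8) in capitals:
mmu-miR-199a-5p: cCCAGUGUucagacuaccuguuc
mmu-miR-199a-3p: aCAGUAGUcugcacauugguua
mmu-miR-214-5p: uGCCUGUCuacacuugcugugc
mmu-miR-214-3p: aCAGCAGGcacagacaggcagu
The 4 seeds differ from each other. The genes Mir199a-2 and Mir214 held 0 counts in all libraries, so the level of the microRNAs was not measured here. The window around the start of Dnm3os (RefSeq, GRCm38.p6, chr1:162217373-162217672, plus strand) is given with the first bases of its exon in capitals:
Dnm3os start: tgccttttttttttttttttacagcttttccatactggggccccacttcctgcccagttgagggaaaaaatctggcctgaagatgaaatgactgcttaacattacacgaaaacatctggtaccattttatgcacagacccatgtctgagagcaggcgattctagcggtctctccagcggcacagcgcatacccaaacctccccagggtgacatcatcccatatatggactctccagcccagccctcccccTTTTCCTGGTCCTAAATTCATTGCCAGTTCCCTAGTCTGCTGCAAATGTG
It held 5 CpG, against a median of 7 in 32851 RefSeq windows of the same length, and on neither strand the TATA box TATAAA, which 13.6% of those windows hold. It also lacked the motif CCAAT (37.4% of windows) and the GC box GGGCGG (35.7%).

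Dnm3os had 28.3, 37.1 and 39.4 CPM in Adm+/- PBS and 75.5, 74.7 and 76.0 CPM in Adm+/- LPS. In WT PBS it had 39.6, 53.9 and 23.6 CPM and in WT LPS 73.7, 57.2 and 40.5 CPM. All 3 Adm+/- LPS libraries lay near 75 CPM, above every PBS library, whereas the WT groups overlapped. The log2 fold change was 1.11 in Adm+/- (SE 0.27, 2.16-fold, adjusted p = 0.0105, edgeR) and 0.55 in WT (SE 0.27, adjusted p = 0.183).

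Dnm3 itself, the gene around it, stayed between 9.96 and 14.4 CPM in the Adm+/- libraries, and its log2 fold change was 0.10 (SE 0.20, adjusted p = 0.761, edgeR). Within a library, the log2 ratio of Dnm3os to Dnm3 rose by 1.0 after LPS in Adm+/- (SE 0.18, adjusted p = 0.00502, limma over 1385 antisense pairs) and was higher by 0.42 in WT (adjusted p = 0.327). The call in Adm+/- held in all 15 alternatives, with changes of 0.97 to 1.03 and adjusted p up to 0.0449. Changes of the ratio were called for 2.09% of all pairs in this comparison.

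Of the 97, the same test called 3 more apart from their partners in Adm+/-, all downward, and 2 in WT, against 0.866% of all pairs in WT. AC133650.1 (ENSMUSG00000110945; chromosome 9, 123018995 to 123021572, minus strand) was called in both. It is a single-exon RNA of 2578 bases whose start lies 246 bases inside the membrane protein gene Tmem42, so that the first bases of both genes overlap and 245 exonic bases are shared. It had 13.8, 14.8 and 19.8 CPM in WT PBS and 6.16, 7.78 and 7.0 CPM in WT LPS. In Adm+/- it had 21.5, 16.2 and 14.8 CPM in PBS and 6.51, 5.96 and 7.17 CPM in LPS. Every LPS library was below every PBS library in both genotypes.

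AC133650.1 fell by 1.21 on the log2 scale in WT (SE 0.19, 2.31-fold, adjusted p = 0.00162, edgeR). In Adm+/- it fell by 1.42 (SE 0.19, 2.67-fold, adjusted p = 0.000290). These were the smallest adjusted p of the 97 in either genotype, and both calls held in all 18 alternatives. Tmem42 stayed between 4.17 and 7.05 CPM, and its log2 fold change was −0.09 in WT and −0.35 in Adm+/- (adjusted p = 0.773 and 0.210, edgeR). The log2 ratio to Tmem42 fell by 1.10 in WT (SE 0.22, adjusted p = 0.0226, limma) and by 1.05 in Adm+/- (SE 0.22, adjusted p = 0.0172). Without both outlying PBS libraries these changes were −0.81 and −0.97 (adjusted p = 0.00647 and 0.000655). Both ratio calls were lost with limma without the trend. They were also lost when any WT LPS library was left out in WT, and without Adm+/- LPS replicate 1 or 2 or Adm+/- PBS replicate 6 or 7 in Adm+/- (adjusted p up to 0.105 and 0.104).

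Gm20631 (ENSMUSG00000093650; chromosome 1, 150625266 to 150783499, plus strand) lies across from Hmcn1, which encodes hemicentin 1, a large protein of the extracellular matrix. It had 13.3, 16.5 and 19.1 CPM in Adm+/- PBS and 6.32, 4.62 and 5.18 CPM in Adm+/- LPS. WT PBS libraries had 16.2, 16.7 and 9.21 CPM and WT LPS libraries 6.36, 7.47 and 9.09 CPM, so that the groups were apart in both genotypes, in WT by a small margin. The fall was 1.6 on the log2 scale in Adm+/- (SE 0.24, 3.03-fold, adjusted p = 0.000657, edgeR) and 0.88 in WT (SE 0.24, adjusted p = 0.0278). The WT call was lost without WT LPS replicate 9 or 10 or WT PBS replicate 3 or 4 (adjusted p up to 0.129).

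Hmcn1, at 577 to 1208 CPM, fell in both genotypes as well, by 0.61 in Adm+/- and by 0.69 in WT (adjusted p = 0.00249 and 0.00251, edgeR). The ratio of Gm20631 to Hmcn1 fell by 0.98 in Adm+/- (SE 0.20, adjusted p = 0.0118, limma), and in WT its change was −0.15 (SE 0.20, adjusted p = 0.761). The difference of these changes was not called (adjusted p = 0.939, the smallest of the 97 pairs). The call in Adm+/- was lost with limma without the trend and without Adm+/- LPS replicate 2 or Adm+/- PBS replicate 7 or 8 (adjusted p up to 0.0847), and it held at −1.10 without both outlying PBS libraries.

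1700052K11Rik (ENSMUSG00000099681; chromosome 11, 105177726 to 105181433, minus strand) overlaps the first part of Tlk2, a kinase of chromatin assembly. It had 9.82, 8.13 and 7.66 CPM in Adm+/- PBS and 6.13, 5.47 and 5.24 CPM in Adm+/- LPS. It fell by 0.60 in Adm+/- (SE 0.20, adjusted p = 0.0444, edgeR) and by 0.70 in WT (SE 0.20, adjusted p = 0.0350), while the log2 fold change of Tlk2 was 0.21 and 0.09 (adjusted p = 0.108 and 0.541). Its ratio to Tlk2 fell by 0.80 in Adm+/- (SE 0.20, adjusted p = 0.0431, limma), a call that 11 of 16 alternatives lost, and in WT its change was −0.74 (adjusted p = 0.102). Without both outlying PBS libraries its fold changes were −0.49 and −0.43, under the limit of 0.5, and the ratio call in Adm+/- held at −0.69. The pair is shown because a RefSeq start of Tlk2 lies just beside the start of the antisense RNA (GRCm38.p6, chr11:105181277-105181576, plus strand), with the 157 bases that lie in the exon of 1700052K11Rik in capitals:
Tlk2 and 1700052K11Rik: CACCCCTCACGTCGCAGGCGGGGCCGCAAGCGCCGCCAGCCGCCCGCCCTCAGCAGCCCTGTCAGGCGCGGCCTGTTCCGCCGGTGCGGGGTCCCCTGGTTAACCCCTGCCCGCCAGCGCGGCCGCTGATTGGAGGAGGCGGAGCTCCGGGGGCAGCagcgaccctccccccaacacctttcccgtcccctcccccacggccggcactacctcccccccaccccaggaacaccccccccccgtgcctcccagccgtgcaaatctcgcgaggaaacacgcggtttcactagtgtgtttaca
This window held 29 CpG at 72.3% GC, 2 GGGCGG and 1 CCAAT.

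Kcnq1ot1 was the only one of the 97 whose ratio was called upward in WT. It had 342, 340 and 202 CPM in WT PBS and 378, 390 and 389 CPM in WT LPS. It had 248, 309 and 337 CPM in Adm+/- PBS and 354, 365 and 357 CPM in Adm+/- LPS. The LPS libraries were higher in both genotypes, by a log2 fold change of 0.39 in WT and 0.27 in Adm+/-, with neither called (adjusted p = 0.158 and 0.305, edgeR). The low PBS values were those of WT PBS replicate 5 and Adm+/- PBS replicate 6.

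Kcnq1 was lower after LPS in both genotypes. It had 21, 19.4 and 19.4 CPM in WT PBS and 12.5, 14.4 and 16.3 CPM in WT LPS, a log2 fold change of −0.47 (SE 0.12, adjusted p = 0.0245, edgeR), just short of the limit of 0.5. The ratio of Kcnq1ot1 to Kcnq1 rose by 0.91 in WT (SE 0.19, adjusted p = 0.0238, limma) and was higher by 0.68 in Adm+/- (SE 0.19, adjusted p = 0.0713). Without both outlying libraries both were called, at 0.68 and 0.59 (adjusted p = 0.000660 and 0.000963). The WT call was lost with limma without the trend and without WT LPS replicate 9 or 10 (adjusted p up to 0.166). The RefSeq window at the start of Kcnq1ot1, inside Kcnq1 (GRCm38.p6, chr7:143296498-143296797, minus strand), held 3 CCAAT and 9 CpG, and the capitals mark the first bases of its exon:
Kcnq1ot1 start: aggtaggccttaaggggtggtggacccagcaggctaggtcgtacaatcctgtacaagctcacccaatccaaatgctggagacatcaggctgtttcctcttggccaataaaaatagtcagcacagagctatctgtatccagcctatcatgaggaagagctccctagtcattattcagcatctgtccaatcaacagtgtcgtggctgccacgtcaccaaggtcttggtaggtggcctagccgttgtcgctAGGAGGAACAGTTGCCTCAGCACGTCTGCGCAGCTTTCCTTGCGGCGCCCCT

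Airn, named here after its values were seen because it is imprinted like Kcnq1ot1, did not pass. It lies across from Igf2r, the receptor that clears insulin-like growth factor 2. Its level was 25.5 to 46.2 CPM in PBS and 28.6 to 42 CPM in LPS, with log2 fold changes of −0.07 in WT and −0.33 in Adm+/- (adjusted p = 0.850 and 0.254, edgeR).

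**Figure D3:**
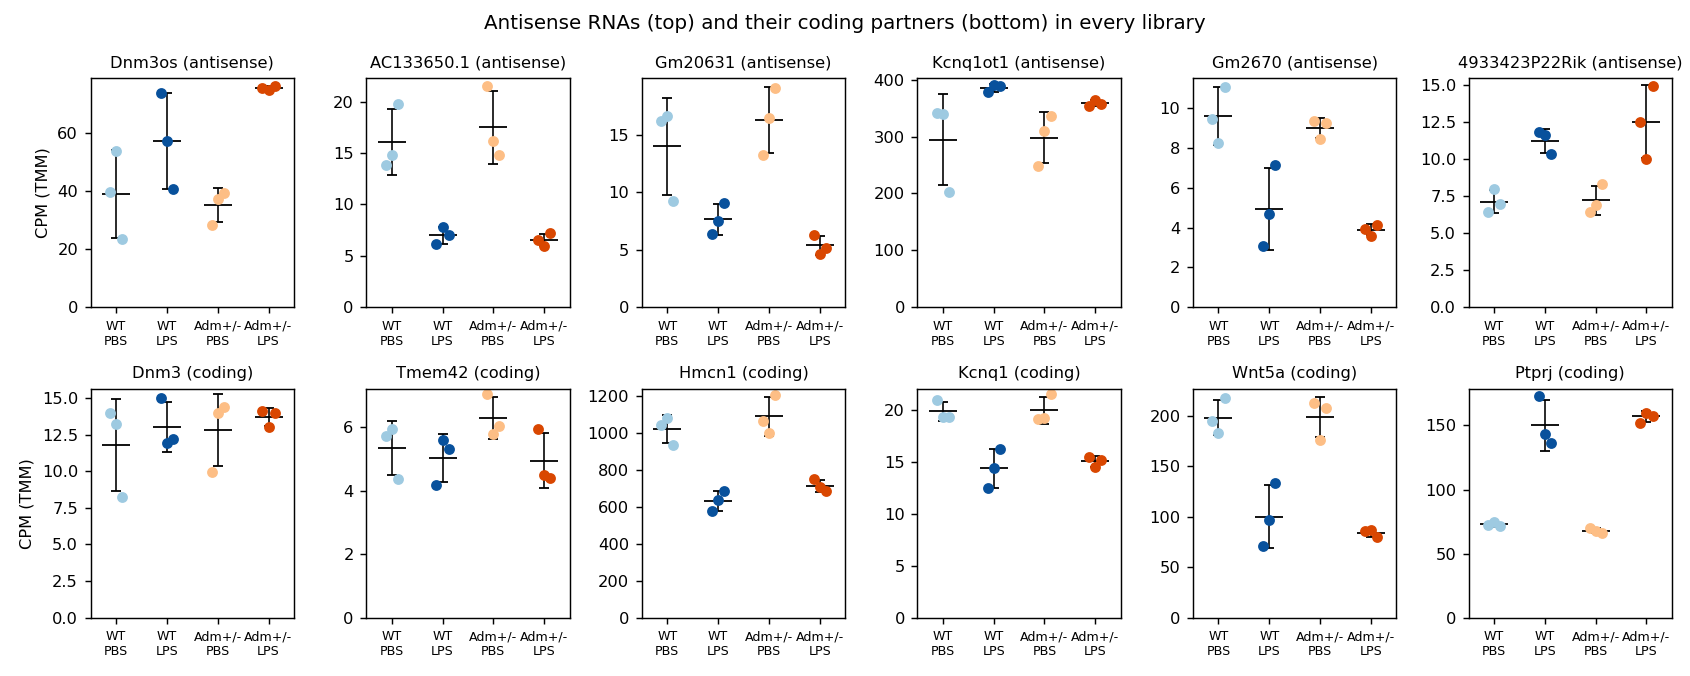
Points are CPM values (TMM-scaled) of the single libraries for 6 antisense RNAs in the upper row and their coding partners in the lower row, with the mean and SD of each group of 3 in black. Gm2670 and Wnt5a and the pair of 4933423P22Rik and Ptprj moved together, whereas Dnm3os and AC133650.1 changed where Dnm3 and Tmem42 did not pass the test.

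In part of the pairs the antisense RNA and the coding gene were called together. In Adm+/- 12 pairs had both genes called the same way, 9 had only the antisense RNA and 5 only the partner called, and 71 had neither. In WT these numbers were 5, 5, 8 and 79. None of the 97 pairs had its genes called in opposite directions. Among the 1288 other antisense pairs tested, both genes were called the same way in 11.8% in Adm+/- and 4.11% in WT. The shares of the 97 were 12.4% and 5.15%. Of the other pairs, 3 in Adm+/- and 0 in WT were called in opposite directions. The antisense RNA alone was called in 9.28% of the 97 in Adm+/-, against 4.97% of the other pairs. In WT these shares were 5.15% and 1.63%. The partner alone was called less often in the 97, in 5.15% against 16.5% in Adm+/- and 8.25% against 15.2% in WT. The differences between these shares were not tested. Of the 96 partners, 3 rose and 10 fell in WT (13.5% called, against 13.2% of all tested genes) and 4 rose and 13 fell in Adm+/- (17.7%, against 21.6%).

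Gm2670 (chromosome 14, 28508074 to 28511392, minus strand) overlaps Wnt5a, a Wnt ligand that shapes the distal lung. It had 9.46, 8.27 and 11.1 CPM in WT PBS, 3.05, 4.66 and 7.14 CPM in WT LPS, 9.36, 8.44 and 9.25 CPM in Adm+/- PBS and 3.93, 3.60 and 4.14 CPM in Adm+/- LPS. Wnt5a had 195, 183 and 217 CPM, 71.0, 96.7 and 133 CPM, 212, 176 and 208 CPM, and 85.7, 87.1 and 79.7 CPM in the same order. Even the order of the WT LPS libraries was shared, with replicate 9 lowest and replicate 11 highest in both genes. Gm2670 fell by 0.96 in WT and 1.21 in Adm+/- (SE 0.25 and 0.25, adjusted p = 0.0237 and 0.00451, edgeR). Wnt5a fell by 0.98 and 1.24 (SE 0.18 and 0.18, adjusted p = 0.00457 and 0.000600). The change of their ratio was 0.00 in WT and 0.03 in Adm+/- (SE 0.16 in both, limma), and 358 exonic bases of the pair overlap. The WT call of Gm2670 was lost without WT LPS replicate 9 or 10, without WT PBS replicate 5 (adjusted p up to 0.119) and without both outlying PBS libraries (adjusted p = 0.0602).

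Gm13269 (chromosome 2, 14740372 to 14767024, minus strand) runs through Cacnb2, which encodes a subunit of voltage-gated calcium channels. It had 10.9, 12.3 and 13 CPM in Adm+/- PBS and 3.43, 3.53 and 4.49 CPM in Adm+/- LPS, a fall of 1.66 on the log2 scale (SE 0.30, 3.16-fold, adjusted p = 0.00183, edgeR). This was the largest fitted fall of the 97 in Adm+/-. In WT it had 10.4, 8.47 and 9.04 CPM in PBS and 2.85, 5.68 and 8.22 CPM in LPS, and its log2 fold change was −0.74 (adjusted p = 0.105). Cacnb2 fell by 1.62 in Adm+/- and 0.92 in WT (adjusted p = 0.000403 and 0.0180), and the change of the ratio was −0.02 and 0.10 (SE 0.27 in both, limma).

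Plexins are receptors of semaphorins, and 3 of them were partners, grouped here after their values were seen. Plxna4os2, inside an intron of Plxna4, had 7.91, 9.24 and 11.2 CPM in Adm+/- PBS and 3.87, 3.53 and 3.84 CPM in Adm+/- LPS and fell by 1.34 (SE 0.26, adjusted p = 0.00322, edgeR), and Plxna4 fell by 0.75. Gm26811, across from Plxna1, had 16, 12.4 and 15.5 CPM in Adm+/- PBS and 7.07, 6.07 and 8.42 CPM in Adm+/- LPS and fell by 1.03 (SE 0.21, adjusted p = 0.00389), and Plxna1 fell by 1.07. In WT both plexins fell, by 0.95 and 0.78, while the log2 fold changes of the antisense RNAs were −0.81 and −0.45 (adjusted p = 0.0564 and 0.160). Gm7628, across from Plxnb1, was not called, with log2 fold changes of −0.49 in WT and 0.04 in Adm+/- (adjusted p = 0.217 and 0.930) beside −0.45 and −0.22 for Plxnb1 (adjusted p = 0.124 and 0.428).

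Receptor-type tyrosine phosphatases, which remove phosphate at the cell membrane, gave 1 pair in each direction. 4933423P22Rik (chromosome 2, 90479236 to 90488425, plus strand), in an intron of Ptprj, was the only one of the 97 to rise in both genotypes. It had 6.41, 7.94 and 6.93 CPM in WT PBS, 11.8, 11.6 and 10.3 CPM in WT LPS, 6.41, 6.88 and 8.32 CPM in Adm+/- PBS and 12.5, 9.98 and 14.9 CPM in Adm+/- LPS. Every LPS library was above every PBS library. It rose by 0.66 in WT and 0.79 in Adm+/- (SE 0.17 in both, adjusted p = 0.0249 and 0.00612, edgeR), and Ptprj rose by 1.05 and 1.20 (adjusted p = 0.000102 and 4.35e-05). The WT call of the antisense RNA was lost without WT LPS replicate 9 or 10 or WT PBS replicate 3 (adjusted p up to 0.0941).

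The window around a RefSeq start of Ptprj inside the gene reaches into the first exon of this antisense RNA (GRCm38.p6, chr2:90479125-90479424, minus strand). The window is shown, with the 189 bases that lie in the first exon of 4933423P22Rik in capitals, because both strands have an annotated start in it:
Ptprj and 4933423P22Rik: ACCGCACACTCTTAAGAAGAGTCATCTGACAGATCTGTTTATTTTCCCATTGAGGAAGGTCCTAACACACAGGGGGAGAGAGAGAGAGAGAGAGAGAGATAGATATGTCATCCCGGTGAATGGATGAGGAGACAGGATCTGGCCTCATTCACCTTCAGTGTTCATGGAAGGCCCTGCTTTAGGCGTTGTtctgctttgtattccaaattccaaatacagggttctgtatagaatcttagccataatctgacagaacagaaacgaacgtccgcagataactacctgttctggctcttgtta
It held 1 TTCNNNGAA, the palindrome that STAT factors bind, which 8.30% of the 32851 windows hold, 6 CpG and no CCAAT. A match of letters is a description and not a binding site.

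AC163731.1, in an intron of Ptprm, moved down. It had 24.8, 28.6 and 20.5 CPM in WT PBS, 11.8, 15.8 and 18.9 CPM in WT LPS, 28.0, 30.3 and 32.3 CPM in Adm+/- PBS and 15.4, 12.7 and 13.4 CPM in Adm+/- LPS. It fell by 0.67 in WT and 1.13 in Adm+/- (SE 0.18 in both, adjusted p = 0.0245 and 0.000827, edgeR), and Ptprm fell by 0.69 and 0.63. The change of its ratio to Ptprm in Adm+/- was −0.50 and not called (SE 0.20, adjusted p = 0.260, limma), and leaving out both outlying PBS libraries it was −0.63 (adjusted p = 0.0153). The WT call was lost without WT LPS replicate 9 or 10 or WT PBS replicate 4 (adjusted p up to 0.116).

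Brip1os (chromosome 11, 86201370 to 86304443, plus strand) starts 177 bases from Brip1, a helicase of DNA repair, and runs away from it. It had 69.9, 72.2 and 72.4 CPM in Adm+/- PBS and 40.8, 54.4 and 46.8 CPM in Adm+/- LPS, a fall of 0.60 on the log2 scale (SE 0.14, adjusted p = 0.0103, edgeR), lost only without Adm+/- LPS replicate 1 among 18 alternatives (adjusted p = 0.0535). In WT the groups overlapped through WT PBS replicate 5, at 53.6 CPM, and the log2 fold change was −0.42 (adjusted p = 0.0705), or −0.56 without both outlying PBS libraries (adjusted p = 0.0127). Brip1, the less abundant of the pair in CPM, had 18.5, 19.1 and 20.5 CPM in Adm+/- PBS and 9.87, 17.9 and 12.7 CPM in Adm+/- LPS, a log2 fold change of −0.52 (adjusted p = 0.105). In both genes Adm+/- LPS replicate 1 was lowest and replicate 2 highest of that group, and the change of their ratio was −0.04 (SE 0.16, limma). The window they share is given on the strand of Brip1 (RefSeq, GRCm38.p6, chr11:86201144-86201443, minus strand), with the 74 bases of the first exon of Brip1os in capitals:
Brip1 and Brip1os: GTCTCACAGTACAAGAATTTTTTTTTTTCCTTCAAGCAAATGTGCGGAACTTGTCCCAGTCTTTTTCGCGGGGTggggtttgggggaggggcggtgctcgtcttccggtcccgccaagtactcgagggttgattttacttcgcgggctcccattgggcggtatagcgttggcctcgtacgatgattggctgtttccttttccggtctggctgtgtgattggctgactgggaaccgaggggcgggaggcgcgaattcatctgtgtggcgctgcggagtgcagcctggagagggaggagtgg
It held 3 CCAAT, 3 GGGCGG and 21 CpG.

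AC118202.1, which starts 1169 bases inside Adgrg6, a receptor of the adhesion family, had the largest fitted fall in WT, and this value rested on an outlying library. It had 16.2, 20.5 and 50 CPM in WT PBS and 8.36, 12.2 and 12.9 CPM in WT LPS. In Adm+/- it had 42.9, 18.8 and 18.8 CPM in PBS and 11.2, 11.7 and 11.1 CPM in LPS. It fell by 1.37 in WT and 1.24 in Adm+/- (SE 0.41 in both, adjusted p = 0.0432 and 0.0447, edgeR). Without both outlying PBS libraries, whose values are the 50 and the 42.9, it still fell, by 0.73 in WT and 0.72 in Adm+/- (adjusted p = 0.0217 and 0.0116). Adgrg6 fell by 0.54 in WT and by 0.65 in Adm+/-.

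E530011L22Rik, across from the end of Nktr, was also highest in WT PBS replicate 5 (18.2 CPM, against 10.4 and 9.01 in the other WT PBS libraries). It fell by 0.83 in WT and 0.73 in Adm+/- (adjusted p = 0.0411 and 0.0472, edgeR). Nktr, a cyclophilin-related gene, had log2 fold changes of 0.08 and 0.14 (adjusted p = 0.724 and 0.495). Without both outlying PBS libraries the fold change was −0.47 in WT (adjusted p = 0.0891) and −0.62 in Adm+/- (adjusted p = 0.0206).

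Apart from Gm15347, described with the differences between genotypes, the remaining calls were smaller than 0.65 on the log2 scale, and several rested on the outlying PBS libraries. Lower in both genotypes was 4921514A10Rik, across from Szrd1, by 0.52 and 0.53. In Adm+/- alone, C920021L13Rik (BC028528, −0.52), Pitpnm2os2 (Pitpnm2, −0.55), Gm17477 (Senp6, −0.57), Gm15910 (Msrb3, −0.60) and Gm16133 (Fancc, −0.64) fell, with adjusted p of 0.0156 to 0.0470 (edgeR). Fancc, of the Fanconi anaemia complex that repairs crosslinked DNA, fell in both genotypes, by 0.65 and 0.70. Upward, Gm29361 rose by 0.52 in Adm+/- (adjusted p = 0.0178), with its partner, the splicing factor gene Rbm25, at 0.35 (adjusted p = 0.0943). In WT alone, AC126549.1 in Arl15 fell by 0.56 (adjusted p = 0.0323), and in Adm+/- its log2 fold change was −0.42 (adjusted p = 0.0704). When both outlying PBS libraries were left out, 5 of these antisense RNAs were no longer called. 4921514A10Rik then had −0.42 in WT and −0.43 in Adm+/- (adjusted p = 0.0543 and 0.0331, edgeR). In Adm+/- C920021L13Rik had −0.49, Pitpnm2os2 −0.48, Gm17477 −0.42 and Gm29361 0.45 (adjusted p = 0.0483, 0.0590, 0.0656 and 0.0246). Gm15910, Gm16133 and AC126549.1 were still called.

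Among the 15 antisense RNAs named after their partner, 4 were called, all in Adm+/- (Dnm3os, Brip1os, Plxna4os2 and Pitpnm2os2), and 11 in neither comparison. This was 26.7% in Adm+/- and 0% in WT, against 21.6% and 13.2% of all tested genes. Several lie at genes of transcription factors. Junos had 7.86 to 9.41 CPM in Adm+/- PBS and 9.49 to 12.9 CPM in Adm+/- LPS, apart by a small margin, and the log2 fold change was 0.35 (adjusted p = 0.132, edgeR), beside 0.44 for Jun (adjusted p = 0.0301, under the limit of 0.5). Irx3os had −0.58 in Adm+/- (adjusted p = 0.0695), or −0.52 and called when both outlying PBS libraries were left out (adjusted p = 0.0483), Tbx3os1 0.10 (adjusted p = 0.725) and Mecomos −0.01 (adjusted p = 0.981), while Mecom fell by 0.51 (adjusted p = 0.00898). The ratio of Mecomos to Mecom was higher by 0.50 (SE 0.17, adjusted p = 0.153, limma).

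Usp54 and Parp9 rose where their antisense RNA was not called, and neither change of ratio was called. Parp9, an interferon-induced gene, had 12.9, 33.1 and 16.8 CPM in Adm+/- PBS and 46.3, 99.3 and 47.4 CPM in Adm+/- LPS and rose by 1.61 (adjusted p = 0.0148, edgeR). Its partner Gm15564 had 53.6, 27.9 and 31.4 CPM in Adm+/- PBS and 7.83, 38.6 and 70.1 CPM in Adm+/- LPS. Usp54 rose in both genotypes, by 0.63 in Adm+/- and 0.57 in WT (adjusted p = 0.00400 and 0.0115, edgeR). 2810402E24Rik, which starts 54 bases inside the first exon of Usp54 on the other strand, had log2 fold changes of −0.14 and −0.29. The change of their ratio was −0.75 in Adm+/- and −0.84 in WT (adjusted p = 0.129 and 0.116, limma). Rb1cc1, an autophagy gene, had 0.64 in Adm+/- (adjusted p = 0.0640, edgeR), and 4732440D04Rik, across from it, had 0.02. The change of the ratio in Adm+/- was called without both outlying PBS libraries for Usp54 (−0.56, adjusted p = 0.0365, limma) and for Rb1cc1 (−0.51, adjusted p = 0.0369).

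**Figure D4:**
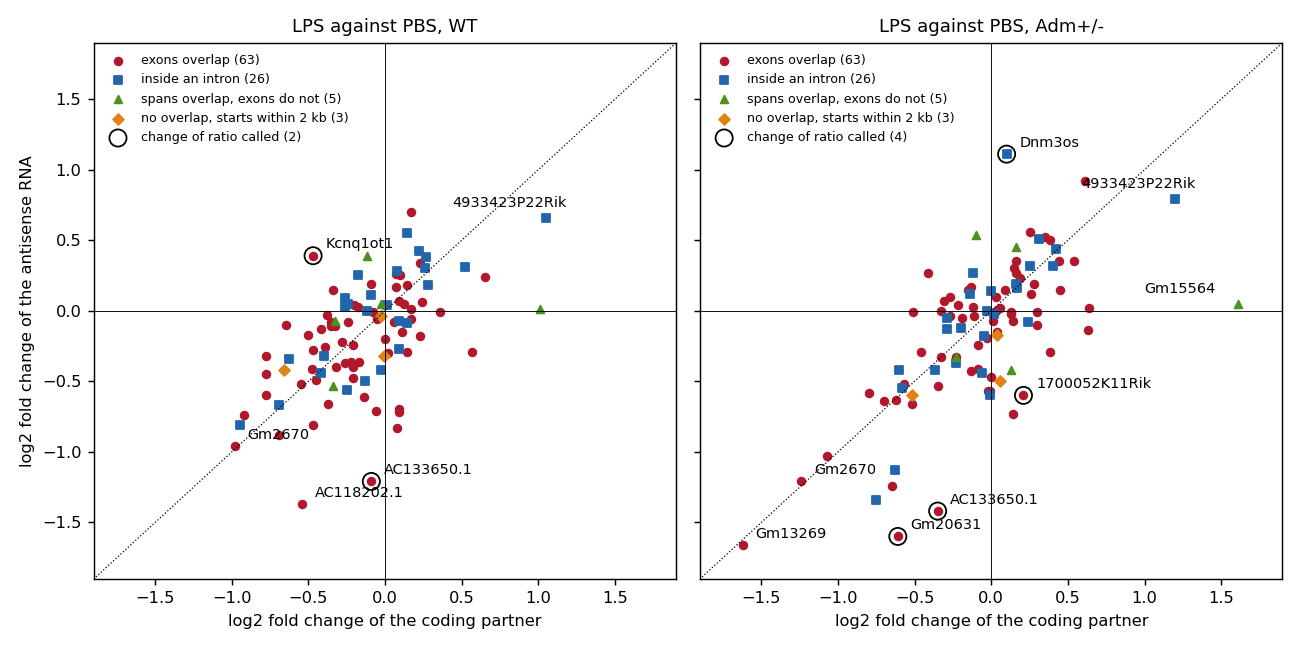
Each point is a pair, with the log2 fold change of the coding partner on the x axis and that of the antisense RNA on the y axis, in WT (left) and Adm+/- (right), coloured by how the genes lie. Open circles mark pairs whose change of ratio was called (2 in WT, 4 in Adm+/-), and the dotted line marks equal changes.

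Over all 97 pairs the antisense RNA and the partner had fold changes of the same sign in 70 in WT (72.2%) and 67 in Adm+/- (69.1%), against 68.2% and 74.1% of the other antisense pairs. Pearson's r of the fold changes across pairs was 0.550 in WT and 0.679 in Adm+/- (Spearman's rho 0.560 and 0.643), a description over pairs that share the 12 libraries. For those other pairs r was 0.659 and 0.736. For the 26 members inside an intron r was 0.785 and 0.775, and for the 63 with overlapping exons 0.447 and 0.718. Unspliced RNA of the partner would be counted as antisense RNA on unshared exonic bases inside the partner's span. This can touch members with overlapping exons as well as those inside an intron, and the part of such RNA was not tested.

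The responses of the genotypes to LPS were not shown to differ for any of the 97. No antisense RNA was called for the difference between the Adm+/- and WT responses, against 0.0824% of all tested genes. An unadjusted p under 0.05 was found for 1611 of the 23051 tested genes and for 4 of the 97 (edgeR). The smallest p was that of Gm15347, across from Atp11a, a flippase of membrane lipids. It had 6.46, 3.70 and 5.59 CPM in Adm+/- PBS, 9.96, 10.2 and 9.46 CPM in Adm+/- LPS, 5.14, 6.96 and 8.82 CPM in WT PBS and 5.92, 6.83 and 5.96 CPM in WT LPS. It rose by 0.92 in Adm+/- (SE 0.22, adjusted p = 0.0111, edgeR), had −0.15 in WT (SE 0.22, adjusted p = 0.679), and the difference was 1.07 (SE 0.32, adjusted p = 0.442). Atp11a rose by 0.61 in Adm+/- and had 0.11 in WT.

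Between genotypes, no antisense RNA was called in PBS, where 0% of all tested genes were called. There 0 of the 97 had an unadjusted p under 0.05 (edgeR), against 611 of the 23051 tested genes. None was called in LPS either, against 1.33% of all genes. An unadjusted p under 0.05 was found for 2742 of the 23051 tested genes and for 5 of the 97. The smallest was that of Gm43803, in an intron of Lhfp, with 5.82, 6.45 and 5.89 CPM in WT LPS and 9.40, 7.55 and 10.9 CPM in Adm+/- LPS, a log2 difference of 0.62 (SE 0.17, adjusted p = 0.102). In LPS, DESeq2 and the fit of 6 libraries each called 1 of the 97.

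The limit of 100 counts in every library used these same libraries, so the split of the 97 into rises and falls is a description that the limit helped to set. Antisense RNAs low in either condition lie outside it. Examples named after their values were seen are Gm16685, higher by 7.12 on the log2 scale in Adm+/- and 5.00 in WT, and 9130015G15Rik, whose log2 fold change was −2.68 in Adm+/- and −1.39 in WT.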

How the data were processed

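The authors trimmed reads with Trim Galore, mapped them to mm10 (HISAT2) and assigned them to Gencode genes (featureCounts). The deposited table holds the raw counts of 52550 genes, unfiltered. The library kit keeps strand and ribosomal RNA was depleted, and the strand option of the counting and the Gencode release are not given in the sources used here. Reads carry no molecular identifiers. Positions came from Gencode M21 for GRCm38 (99.7% of genes found). Sequences came from RefSeq (GRCm38.p6), with windows matched by symbol for 36 antisense RNAs and for the partner of 79 pairs.

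Counts were analysed in R 4.3.3. Genes passing edgeR 4.0.16 filterByExpr (23051) were TMM-scaled and fitted with the quasi-likelihood model over all 12 libraries, 1 coefficient per group, 8 residual degrees of freedom, Benjamini-Hochberg adjustment over all genes. Log2 ratios of antisense RNA to partner (log2 CPM, prior count 2) were tested with limma 3.58.1 with a trend, adjusted over 1385 pairs. The partner was the gene named by the symbol (within 100 kb), else that with the largest shared span on the opposite strand, else a head-to-head gene within 2 kb. Alternatives covered scaling, DESeq2 1.42.0, limma-voom, filters, thresholds, the limit on counts and each library left out. Scripts were tested on simulated data. All 12 pairs of libraries within groups differed by more than sampling noise.

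The naming rule took antisense RNAs whose symbol names the partner, the 10 with the smallest p in each LPS comparison and 5 in each of the 3 others, the 5 pairs with the smallest p for the ratio in each LPS comparison, the 5 highest per length, 3 genes on each side of the limit, and partners. From these the text describes the ones its results turn on. Other antisense RNAs that were called, and some partners called alone, are named as well, chosen after their values were seen. The members and lists were chosen with earlier results of these data known.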

Additional observations from a re-analysis of the deposited data

How the results depend on the processing

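No paired analysis was possible because each replicate number is used once. Of 96 fold changes of named antisense RNAs after LPS, 31 were called, of which 11 were called in every alternative and 20 were lost in at least 1, and 8 of the 65 not called passed in some. No called value changed sign, and 23 values that were not called did. In WT the main counts were 1 higher and 9 lower. Fitting 6 libraries gave 0 higher and 1 lower, glmTreat 0 and 1, while DESeq2, limma-voom and no filter each gave 2 higher. With at least 50 counts in each library (252 genes) 4 were higher and 15 lower (5.95% lower, against 9.28% of the 97), with 200 counts (23 genes) 0 and 2 (8.70%), and with a mean of 100 counts (254 genes) 12 and 14 (5.51%). In Adm+/- the main counts were 4 higher and 17 lower. There glmTreat gave 0 and 7, the limit of 50 counts 14 and 40 (15.9% lower, against 17.5%), that of 200 counts 1 and 6 (26.1%), and the mean 24 and 36 (14.2%). Between genotypes in LPS (0 in the main analysis) the fit of 6 libraries and DESeq2 called 1 each and the mean of 100 counts 2. Called ratios were 2 in WT, 0 without the trend, and 4 in Adm+/-, 1 without the trend and 10 without both outlying PBS libraries, a fit added after seeing the data. That fit called 1 ratio between genotypes in LPS (Gm20631, −0.68, adjusted p = 0.0139, limma). Leaving out 1 library at a time gave 0 to 2 higher and 1 to 9 lower in WT, 3 to 5 higher and 8 to 19 lower in Adm+/-, and 0 to 2 and 1 to 12 called ratios. The 12 came without WT PBS replicate 5, the 0 without WT LPS replicate 9 or 10, and the 1 without Adm+/- LPS replicate 2 or Adm+/- PBS replicate 7. Higher calls in WT were 0 without WT LPS replicate 9 or 10 or WT PBS replicate 3. Of the 70 antisense RNA genes wholly inside opposite exons 1 held at least 10 counts and 0 at least 100, and of 472 genes of any biotype 4 and 1. Other causes of these shifts were not tested. The lowest library of a member held 100 to 3642 counts (median 142), and changes up to 0.5 on the log2 scale were not called at any depth.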
